A study of Mus musculus with 3 samples.

Results

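The BMP and Id genes described here are 10 of the 31053 genes counted in single-cell RNA libraries of adult mouse cochlear explants, and they were chosen by symbol. The ligands are Bmp2, Bmp4 and Bmp7, Bambi is a decoy receptor, Smad6 and Smad7 are inhibitory SMADs, and Id1, Id2, Id3 and Id4 are transcriptional targets. Every explant came from mice aged 4 to 6 weeks that carried rtTA, tet-Myc and tet-NICD (the intracellular domain of Notch), so that doxycycline (Dox) switches on both transgenes. The Dox group comprised 2 libraries, Dox 1 and Dox 2, each pooled from 4 cultures given Dox at 2 µg/ml for 4 days, and the Control group was 1 library pooled from 4 cultures given sterile water. All groups carried the transgenes, no library received Dox without them, and the promoter that drives rtTA was not given in the sources used here. After culture the sensory epithelium was dissected from each explant, dissociated with trypsin and sequenced from the 3′ end of its transcripts, with unique molecular identifiers (UMIs) counting captured molecules.

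BMP ligands bind paired type I and type II receptor kinases, which phosphorylate SMAD1, SMAD5 and SMAD8 so that these enter the nucleus with SMAD4. The Id genes are classic direct targets of this branch, and their products are helix-loop-helix proteins without a DNA-binding region that hold E proteins and so restrain basic helix-loop-helix factors such as Atoh1, the factor that starts hair cell formation. Smad6, Smad7 and Bambi are feedback inhibitors that BMP or TGF-beta signals induce and that dampen receptor signalling. In the developing cochlea, Bmp4 marks the outer, non-sensory side of the sensory domain, and Id1, Id2 and Id3 are expressed in the epithelium in which hair cells and supporting cells arise.

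Promoters from RefSeq (assembly GRCm38.p6) were at hand for 5 of the 10 genes, Id2, Id3, Id4, Bmp4 and Smad6, each covering 250 bases before to 50 bases after the annotated start. The 3 printed belong to the member with a lower level in most classes of cells (Id4), to an Id gene whose difference was smaller in the epithelium (Id2), and to the ligand that fell in the epithelium (Bmp4). Capitals mark GGCGCC (a GC-rich SMAD1/5 motif), CACGTG (the E-box read by MYC) and TGGGAA or its complement TTCCCA (the RBPJ motif of the Notch pathway), read on both strands, and positions count from 0 at the start base. Id4 lies at chr13:48260866-48261165 (plus strand), Id2 at chr12:25096043-25096342 (minus strand) and Bmp4 at chr14:46390620-46390919 (minus strand).
Id4: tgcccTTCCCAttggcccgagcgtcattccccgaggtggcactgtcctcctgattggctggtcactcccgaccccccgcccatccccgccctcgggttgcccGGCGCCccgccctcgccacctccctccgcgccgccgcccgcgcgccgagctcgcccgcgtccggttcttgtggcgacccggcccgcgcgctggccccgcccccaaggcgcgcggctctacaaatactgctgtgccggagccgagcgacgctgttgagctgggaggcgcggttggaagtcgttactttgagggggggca
Id2: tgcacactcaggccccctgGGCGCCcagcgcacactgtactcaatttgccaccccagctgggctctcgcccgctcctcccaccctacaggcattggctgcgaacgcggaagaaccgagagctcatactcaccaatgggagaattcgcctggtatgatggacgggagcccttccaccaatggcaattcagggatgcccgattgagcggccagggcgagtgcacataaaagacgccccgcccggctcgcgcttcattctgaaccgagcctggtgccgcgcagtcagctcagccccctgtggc
Bmp4: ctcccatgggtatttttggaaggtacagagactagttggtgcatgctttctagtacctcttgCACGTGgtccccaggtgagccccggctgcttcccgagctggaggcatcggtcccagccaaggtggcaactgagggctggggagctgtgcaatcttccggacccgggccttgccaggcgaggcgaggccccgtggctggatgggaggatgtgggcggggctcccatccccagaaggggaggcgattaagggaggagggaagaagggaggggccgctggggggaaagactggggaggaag
GGCGCC stood at position -148 in Id4 and at -231 in Id2, and 11.9% of the 32851 mouse promoters of the same length held it. TTCCCA stood at -245 in Id4, a motif found on either strand in 25.6% of promoters. CACGTG stood at -188 in Bmp4, against 7.15% of all promoters. The SMAD box GTCT or AGAC, found in 88.0% of promoters and not capitalised, was in the windows of Id2, Id3, Bmp4 and Smad6 and not in that of Id4. A match is a string of letters and not a bound site.

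The libraries held 788 and 1095 barcodes with Dox and 512 in Control, with 20309102 and 33385927 UMIs with Dox and 5436731 in Control. Barcodes were not unique to a library: 125 occurred in more than 1, and 193 entries (41 in Dox 1, 72 in Dox 2 and 80 in Control) were shallow copies holding 0.259% to 1.68% of the UMIs of the deepest entry. They were left out, and results that change when they are kept are given both ways. Filtering left 595 and 925 cells with Dox and 283 in Control, and the median cell had 20441 and 29877 UMIs with Dox and 12829 in Control. Clustering without the members or the other genes of their pathway gave 4 classes with at least 20 cells in every library, which were named only from marker genes. Supporting cell-like cells numbered 56 and 25 with Dox and 23 in Control, other epithelium-like cells (sulcus-like and Reissner-like) 113 and 329 with Dox and 32 in Control, glia-like cells 38 and 50 with Dox and 28 in Control, and macrophage-like cells 45 and 24 with Dox and 23 in Control. Whether UMIs of Notch1 and Myc came from the transgenes or the native genes was not tested. Notch1 was 433 and 496 CPM (counts scaled to a common library size by TMM) in supporting cell-like cells with Dox and 35.4 in Control, and Myc was 39.5 and 64.1 with Dox and 10.9 in Control. Both genes rose in the supporting, other epithelium-like and glia-like cells and neither passed the test in macrophage-like cells (Notch1 adjusted p = 0.459, Myc adjusted p = 0.996). All tests below used edgeR's quasi-likelihood test on UMIs summed per library, 2 Dox libraries against 1 Control library, with Benjamini-Hochberg adjustment over all genes tested and a threshold of 0.05; the p-values rest on the spread between the 2 Dox libraries.

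The ligands differed in the cell groups that held them, and the level of each gene across groups is a description, because the groups come from clustering. Bmp4 had 2.3 and 1.1 CPM in sulcus-like cells with Dox and 59.3 CPM in Control, and no UMI in Reissner-like cells of any library. Bmp2 was listed at 22.7 CPM in the 96 fibroblast-like cells, a cluster found in Control alone, which held 43 of the 56 Bmp2 UMIs of Control. Bmp4 in those fibroblast-like cells also had 43 UMIs. Bmp7 had 35.8 and 37.4 CPM in sulcus-like cells with Dox and 75.0 CPM in Control, and 34.5 and 22.5 CPM in supporting cell-like cells with Dox and 3.36 CPM in Control. Outside these groups Bmp7 was 53.5 CPM in the 14 Control melanocyte-like cells and 1.6 CPM in the Control fibroblast-like cells.

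Among the feedback inhibitors, Smad7 reached 204 CPM in the Control fibroblast-like cells and 56.6 and 60.9 CPM in pericyte-like cells with Dox. In sulcus-like cells Smad7 was 30.2 and 33.4 CPM with Dox and 173 CPM in Control. Bambi was 50.2 CPM and Smad6 36.5 CPM in the Control fibroblast-like cells. Id3 was also high in those cells, at 794 CPM, and was 161 and 307 CPM in pericyte-like cells with Dox. Id4 had another distribution, with 31.1 and 35.3 CPM in Reissner-like cells with Dox and 247 CPM in Control, and 10.0 CPM in the Control fibroblast-like cells. Id2 was present in macrophage-like cells of all libraries (191 and 154 CPM with Dox, 249 CPM in Control), whereas pericyte-like cells with Dox had 9.1 and 4.8 CPM.

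**Figure D1:**
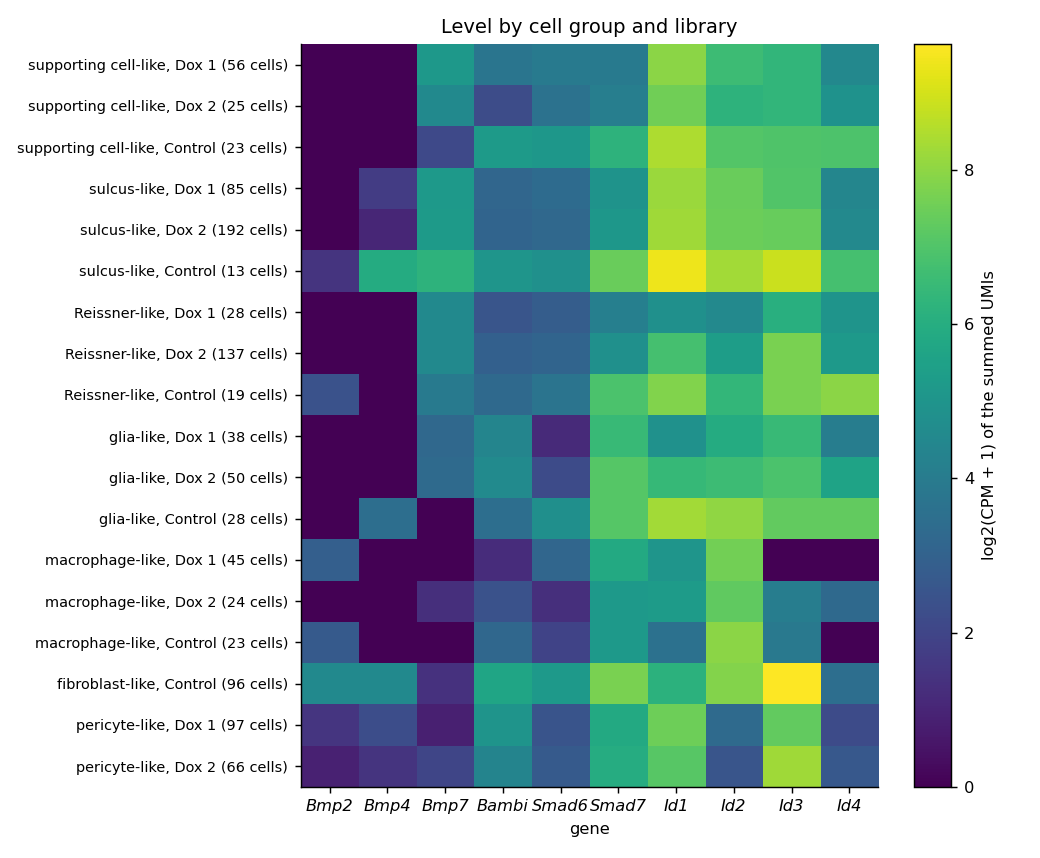
Level of the 10 genes (columns) in each cell group and library (rows), as log2(CPM + 1) of the summed UMIs; each row label gives the number of cells. Bmp4 is bright in the Control sulcus-like and fibroblast-like rows, and Id4 is brighter in the Control rows of the epithelial and glia-like groups than in their Dox rows.

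In the sulcus-like and Reissner-like epithelium, 7 of the 9 members tested were lower with Dox and none was higher, in a class in which 13.7% of the 12730 genes tested fell and 13.6% rose (27.3% in all, and 39.6% at an unadjusted p of 0.05 or less). Bmp4, Bambi, Smad6, Smad7, Id1, Id3 and Id4 fell, while Bmp7 and Id2 did not pass the test. The median log2 fold change of the members tested was -0.97, against 0.02 for all genes tested. In sums such as these, fewer expressing cells and less RNA per cell cannot be told apart.

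Bmp4 had 12 UMIs (1.79 CPM) in Dox 1, 9 UMIs (0.649 CPM) in Dox 2 and 34 UMIs (21.5 CPM) in Control. Both Dox libraries were far under Control, and the log2 fold change was -4.28 (SE 0.62, adjusted p = 0.00197). In Control, 4 of 32 cells held all the Bmp4 UMIs and 1 of them held 64.7%. Bmp2 had no UMI in either Dox library and 5 in Control, and was too low to be tested. Its 95% counting interval begins at 11.9-fold lower with Dox and has no upper limit. Bmp7, in contrast, was 33.3 and 33.0 CPM with Dox and 35.4 CPM in Control, and did not pass the test (-0.09 on the log2 scale, SE 0.19, adjusted p = 0.754).

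Smad7 was 27.7 and 32.5 CPM in the Dox libraries and 129.55 CPM in Control. The Dox values lay close together and well under Control, and the difference passed the test (log2 fold change -2.10, SE 0.17, adjusted p = 0.000149). Smad6, the inhibitory SMAD that acts mainly on BMP receptors, was 8.82 and 8.58 CPM with Dox and 17.1 CPM in Control (log2 fold change -0.97, SE 0.31, adjusted p = 0.0496). Bambi, which resembles a type I receptor without its kinase, was 7.47 and 7.64 CPM with Dox and 16.4 CPM in Control (log2 fold change -1.12, SE 0.32, adjusted p = 0.0361). The Smad6 and Bambi calls were lost without the 5% deepest cells (adjusted p of 0.122 and 0.467) and with DESeq2 (0.449 and 0.377). Both were also lost in Reissner-like cells alone, and Smad6 at clustering resolution 2 and without cells of little Malat1. Smad6 passed in 6 of 11 alternatives with a test and Bambi in 8 of 11.

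Id4 showed the largest difference of the Id genes, with 156 UMIs (23.3 CPM) in Dox 1, 405 UMIs (29.2 CPM) in Dox 2 and 286 UMIs (181 CPM) in Control. Id4 was 6.81-fold lower with Dox (log2 fold change -2.77, SE 0.17, adjusted p = 7.35e-05). Id1 was 231 and 238 CPM with Dox and 369.7 CPM in Control (log2 fold change -0.66, SE 0.13, adjusted p = 0.00812). Id3 was 116 and 193.5 CPM with Dox and 287.55 CPM in Control, so that the Dox libraries differed from each other as well as from Control (log2 fold change -0.89, SE 0.26, adjusted p = 0.0379). Id2 was 139 and 126 CPM with Dox and 162 CPM in Control (log2 fold change -0.29, SE 0.15, adjusted p = 0.188). The Id3 call was lost with DESeq2 (adjusted p = 0.449), with the shallow copies kept (0.0502) and in cells thinned to 1000 UMIs, where the value was 0.15 on the log2 scale (0.914). It was also lost at clustering resolution 2, with all variable genes used for clustering, without cells of little Malat1 and in Reissner-like cells alone. Id3 passed in 5 of the 12 alternatives with a test.

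The mix of the 2 epithelial groups differed between libraries: 85 and 192 cells with Dox and 13 in Control were sulcus-like, and 28 and 137 with Dox and 19 in Control were Reissner-like. The summed level of the 6 Reissner markers was 557 CPM (5 detected) and 761 CPM (5 detected) in this class with Dox and 3810 CPM (4 detected) in Control, and that of the 12 sulcus markers was 909 CPM (10 detected) and 814 CPM (12 detected) with Dox and 2482 CPM (10 detected) in Control. Each group was therefore also tested alone, a choice made after seeing the data and resting on fewer than 20 Control cells. Among sulcus-like cells alone, where 9.75% of the 12097 genes tested fell and 9.81% rose, all 9 members tested fell, including Id2 (log2 fold change -0.71, adjusted p = 0.014) and Bmp7 (-0.88, adjusted p = 0.0298), and Bmp4 was at -5.06 (adjusted p = 0.000406). Among Reissner-like cells alone, where 9.39% of the 10541 genes tested fell and 10.7% rose, Id2 (-1.16, adjusted p = 0.0488), Id4 (-2.72, adjusted p = 0.000113) and Smad7 (-2.15, adjusted p = 0.00195) fell. In those cells Id1 (-1.43, adjusted p = 0.116), Id3 (-0.40, 0.629), Smad6 (-0.61, 0.471), Bambi (-0.39, 0.722) and Bmp7 (0.82, 0.154) did not pass the test. The sulcus-like cells themselves came from 2 clusters in unequal parts. The cluster led by Epyc and Aqp4 held 46 and 60 cells with Dox and 10 in Control, and the cluster with Gabrp and Otoa held 39 and 132 with Dox and 3 in Control. Within the Epyc and Aqp4 cluster, whose values were not tested, Id2 was 244 and 253 CPM with Dox and 310.1 CPM in Control, nearer to each other than in the sulcus-like sums (171 and 178 CPM with Dox, 317 in Control). Id4 there was 22.7 and 21.7 CPM with Dox and 102 CPM in Control, and Smad7 was 34.2 and 41.3 CPM with Dox and 147 CPM in Control. Bmp4 was 4.38 and 3.41 CPM with Dox and 80.5 CPM in Control, and Bmp7 was 30.2 and 42.6 CPM with Dox and 80.5 CPM in Control. The part of the cluster mix in the calls on sulcus-like cells, that of Id2 included, was not tested.

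**Figure D2:**
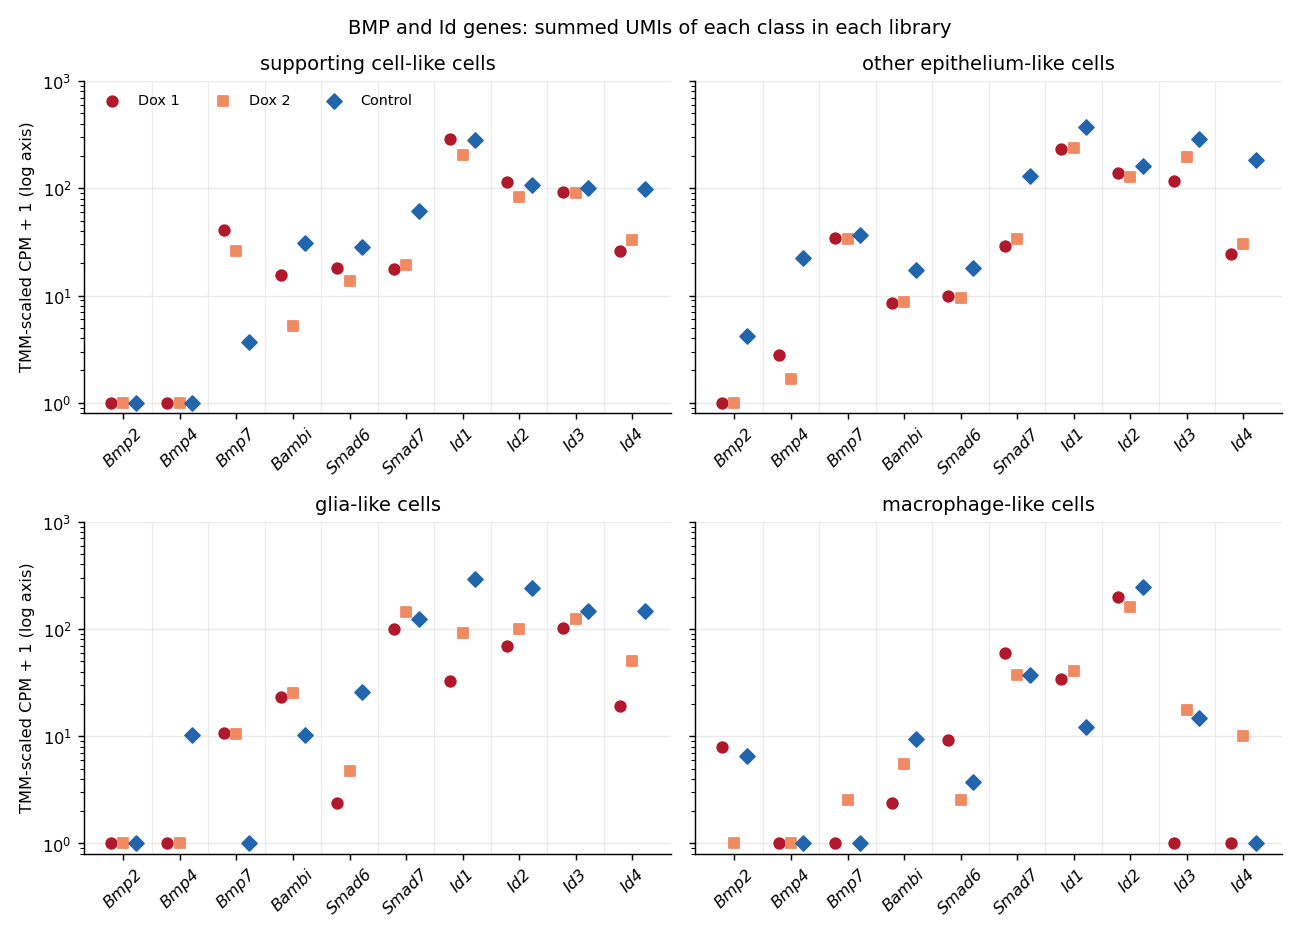
Scaled CPM + 1 (log axis) of each gene in the summed UMIs of 4 classes; each point is 1 library, Dox 1 and Dox 2 left of Control. In other epithelium-like cells the Id4 points stand at 23.3 and 29.2 CPM with Dox and 181 in Control. The Bmp7 points there lie close together (33.3 and 33.0 CPM with Dox, 35.4 in Control).

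Supporting cells surround the hair cells and are the class from which new hair cells form after damage in non-mammalian ears. In the supporting cell-like cells Bmp7 rose, Id4 and Smad7 fell, and the other 5 members tested did not pass, including Id1, Id2 and Id3. Of the 8900 genes tested 7.45% rose and 4.06% fell (11.5% in all), and the median log2 fold change was -0.50 over the 8 members tested and 0.03 over all genes. DESeq2 called none of the 8, 4 of which it gave no adjusted p, and at an unadjusted p of 0.05 edgeR had 1 higher and 3 lower, against 24.4% of all genes in either direction. Keeping the shallow copies (59 and 29 cells with Dox, 31 in Control) also left none past the threshold. Cells with little Malat1 made up 53.6% and 44.0% of this class with Dox and 52.2% in Control. In other epithelium-like cells they were 4.4% and 2.4% with Dox and 6.25% in Control. Without them 26 and 14 supporting cell-like cells remained with Dox and 11 in Control, too few for that setting to be run. The top 3 cells held 29.6% and 34.6% of the UMIs of the class with Dox and 45.5% in Control.

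Bmp7 had 75 UMIs (40.1 CPM) in Dox 1, 18 UMIs (25.1 CPM) in Dox 2 and 1 UMI (2.72 CPM) in Control. A UMI was found in 22 of 56 and 9 of 25 cells with Dox and in 1 of 23 in Control. The log2 fold change was 3.59 (SE 0.92, adjusted p = 0.0116), and the counts stood at a ratio of 13.2 (95% counting interval 2.31 to 527). Bmp7 passed the filter on low counts only through its Dox sums; its adjusted p was 0.0505 with the shallow copies kept and 0.074 without the 5% deepest cells. Bmp2 and Bmp4 had no UMI in this class in any library, which allows up to 1.4 and 3.8 CPM with Dox and 10.1 CPM in Control.

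Smad7 was 16.6 and 18.1 CPM with Dox and 59.9 CPM in Control (log2 fold change -1.80, SE 0.45, adjusted p = 0.0102, and 0.0532 with the shallow copies kept). Smad6 was 17.1 and 12.5 CPM with Dox and 27.2 CPM in Control (adjusted p = 0.424), from 32 and 9 UMIs with Dox and 10 in Control. Bambi was 14.4 and 4.18 CPM with Dox and 29.9 CPM in Control (log2 fold change -1.46, SE 0.67, adjusted p = 0.182). Of these 3 inhibitors, Smad7 alone passed the test. A single Control cell held 45.5% of the Smad7 UMIs, 70.0% of the Smad6 UMIs and 45.5% of the Bambi UMIs of that library.

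Id4 had 47 UMIs (25.1 CPM) in Dox 1, 23 UMIs (32.1 CPM) in Dox 2 and 36 UMIs (97.9 CPM) in Control. It was 3.53-fold lower with Dox (log2 fold change -1.82, SE 0.37, adjusted p = 0.00171). A single Control cell held 41.7% of the Control Id4 UMIs, and an Id4 UMI was found in 33.9% and 44.0% of cells with Dox and 39.1% in Control. With DESeq2 the adjusted p was 0.162, and with the shallow copies kept the log2 fold change was -1.36 (0.0863). Id1 was 285 and 205 CPM with Dox and 283 CPM in Control, Id2 113 and 82.3 CPM with Dox and 106 CPM in Control, and Id3 91.9 and 89.2 CPM with Dox and 101 CPM in Control. For these 3 the log2 fold changes were -0.19 (SE 0.26), -0.09 and -0.15, with adjusted p of 0.708, 0.901 and 0.814.

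Id1 was spread unevenly over cells, and 1 Control cell held 58.7% of the Control Id1 UMIs. When each cell counted equally, the mean Id1 level per cell was 479 and 293 CPM with Dox and 175 CPM in Control, whereas the unscaled sums gave 246 and 184 CPM with Dox and 349 CPM in Control, and a UMI of Id1 was found in 66.1% and 80.0% of cells with Dox and 47.8% in Control. Depth differed too, with a median of 9558.5 and 23446 UMIs per supporting cell-like cell with Dox and 6701 in Control. Of 16 supporting cell markers, 16 were detected with Dox in each library (2107 and 2561 CPM summed) and 14 in Control (3290 CPM). These markers include Hes5, a Notch target that had 300 and 63 UMIs with Dox and none in Control. The summed hair cell markers were 317 and 165 CPM in this class with Dox and 987 CPM in Control, with 11, 10 and 11 of 11 detected; the part of any of these in the members' values was not tested. Scaling by total counts in place of TMM lowered the median of all genes to -0.47 and cut the share of rises among all calls to 24.2%, against 64.7%; under it Id1 (-0.69, adjusted p = 0.0336) also fell, as did Bambi (-1.96, adjusted p = 0.0197), which passed the filter on low counts only through Control.

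**Figure D3:**
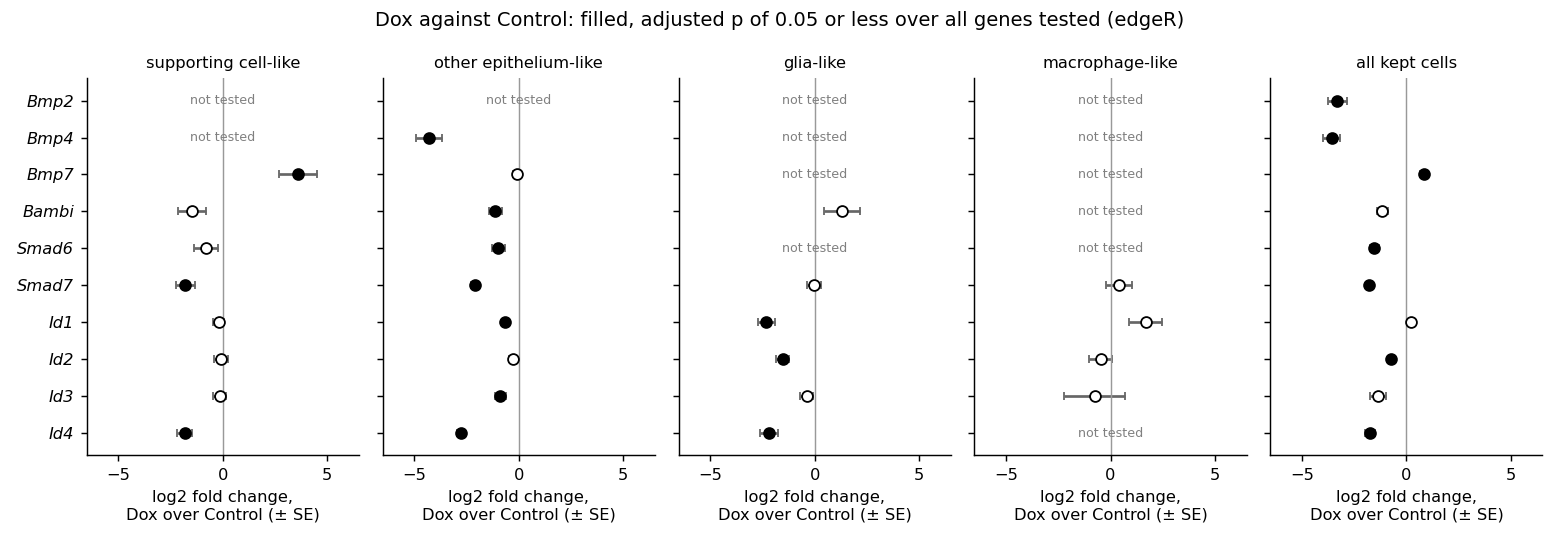
Log2 fold change, Dox over Control, with its standard error for each gene in the 4 classes and in all kept cells; filled points have an adjusted p of 0.05 or less (edgeR). Id4 is filled and left of 0 in supporting, other epithelium-like and glia-like cells and in all kept cells, whereas Bmp7 is filled only in supporting cell-like cells and all kept cells, to the right of 0.

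In glia-like cells 3 of the 6 members tested fell, all of them Id genes, and none rose, where 3.69% of the 7618 genes tested fell and 3.36% rose (7.05% in all, and 21.1% at an unadjusted p of 0.05 or less). The members' median log2 fold change was -0.95, against 0.02 for all genes. Id1 had 23 UMIs (31.8 CPM) in Dox 1, 48 UMIs (90.6 CPM) in Dox 2 and 94 UMIs (291 CPM) in Control. Both Dox libraries were under Control and also apart from each other (log2 fold change -2.30, SE 0.39, adjusted p = 0.00148). Id4 had 17.999 and 49.1 CPM with Dox and 145 CPM in Control (log2 fold change -2.18, SE 0.43, adjusted p = 0.00411). Id2, at 67.8 and 100.04 CPM with Dox and 238 CPM in Control, fell as well (log2 fold change -1.52, SE 0.31, adjusted p = 0.00613).

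Id3 was 101 and 123 CPM in glia-like cells with Dox and 145 CPM in Control (adjusted p = 0.537). Smad7 was 99.7 and 143 CPM with Dox and 124 CPM in Control, so that Control lay between the Dox libraries (log2 fold change -0.04, SE 0.34, adjusted p = 0.961). Bambi, with 16 and 13 UMIs with Dox and 3 in Control, stood at a ratio of 2.50 (95% counting interval 0.774 to 12.8, adjusted p = 0.415). Smad6 (1 and 2 UMIs with Dox, 8 in Control), Bmp7 (7 and 5 with Dox, 0 in Control) and Bmp4 (0 and 0 with Dox, 3 in Control) were too low to be tested, and Bmp2 had no UMI. DESeq2 called none of the 6 (adjusted p of 0.491 for Id1, 0.208 for Id2 and 0.185 for Id4; 1 member without an adjusted p), whereas edgeR's unadjusted p was at or under 0.05 for the same number, 3. The summed level of the glia marker list, with 13 of 14 detected in each library, was 2036 and 3086 CPM with Dox and 6538 CPM in Control.

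In macrophage-like cells none of the 4 members tested (Id1, Id2, Id3 and Smad7) passed the test by edgeR or by DESeq2, which gave 3 of them no adjusted p; 1 had an unadjusted p of 0.05 or less. Of the 7740 genes tested 2.18% were called (1.3% higher and 0.879% lower), and 8.22% had an unadjusted p of 0.05 or less. Id2, the member with the most UMIs here, was 198 and 159 CPM with Dox and 247 CPM in Control (log2 fold change -0.47, SE 0.55, adjusted p = 0.996). Id1 was 33.0 and 39.5 CPM with Dox and 11.1 CPM in Control (unadjusted p = 0.0344, adjusted p = 0.492), and 1 cell held 95.8% and 65.4% of its UMIs in the Dox libraries and 50.0% in Control. Smad7 was 59.1 and 36.4 CPM with Dox and 36.1 CPM in Control (adjusted p = 0.996). Id3 had 0 and 11 UMIs with Dox and 5 in Control, and Id4 had 0 and 6 with Dox, the 6 all in 1 cell, and 0 in Control. General epithelium markers were detected in these cells at a summed 33 CPM (6 of 15) and 643 CPM (15 of 15) with Dox and 11 CPM (3 of 15) in Control.

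Summed over whole libraries, 1 of the 10 members rose and 6 fell, where 10.1% of the 15421 genes tested rose and 8.33% fell (18.5% in all, and 38.3% at an unadjusted p of 0.05 or less). Such sums also move with the mix of cell types, and the 96 fibroblast-like cells were in Control alone. An unnamed cluster with Dcn, Col3a1 and Col2a1 among its leading genes held 4 and 75 cells with Dox and 18 in Control. Id3 there was 420 CPM in Dox 2 and 256 CPM in Control, and Smad7 was 70.9 and 147 CPM. Unnamed clusters with Hist1h genes among their leading genes, the first also with Otx2, held cells with Dox alone. These cells numbered 15 and 86, 30 and 63, and 25 and 64, and lay outside the 4 classes. Of the 469 and 814 Bmp7 UMIs with Dox, these clusters held 37 and 153, 2 and 10, and 91 and 125. Their part in the Bmp7 value of whole libraries was not tested. The median log2 fold change was -1.44 over the members and -0.01 over all genes. Bmp4 had 28 and 28 UMIs with Dox and 85 in Control (log2 fold change -3.58, SE 0.42, adjusted p = 0.0198). Bmp2 had 14 and 34 UMIs with Dox and 56 in Control, although the Control library held the fewest UMIs (log2 fold change -3.30, SE 0.46, adjusted p = 0.0239). The Control fibroblast-like cells held 43 of the 85 Bmp4 UMIs and 43 of the 56 Bmp2 UMIs. Bmp7 rose at 24.9 and 26.6 CPM with Dox and 14.3 CPM in Control (log2 fold change 0.85, SE 0.19, adjusted p = 0.0494), a call lost with DESeq2 (0.153), with the shallow copies kept (0.0552) and with total count scaling (0.0998).

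Smad7 was 39.2 and 42.4 CPM with Dox and 139 CPM in Control (log2 fold change -1.77, SE 0.14, adjusted p = 0.0164), and Smad6 was 8.22 and 7.41 CPM with Dox and 22.6 CPM in Control (-1.54, SE 0.21, adjusted p = 0.0242). Bambi was 13.8 and 10.2 CPM with Dox and 26.8 CPM in Control (adjusted p = 0.0512). Id4 was 16.7 and 23.4 CPM with Dox and 67.4 CPM in Control (-1.74, SE 0.24, adjusted p = 0.0242), but 0.06 with cells thinned to 1000 UMIs (adjusted p = 0.968). Id2 was 102 and 99.8 CPM with Dox and 166 CPM in Control (-0.72, SE 0.13, adjusted p = 0.0333). Id1 was 207 and 199.69 CPM with Dox and 173 CPM in Control (log2 fold change 0.24, adjusted p = 0.254), and Id3 was 112 and 210.53 CPM with Dox and 409 CPM in Control (-1.34, SE 0.38, adjusted p = 0.0805).

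Whether a Dox difference itself differed between classes was tested in 54 contrasts, 9 members over 6 pairs of classes, and none passed the adjusted threshold by edgeR, which had 17 (31.5%) at an unadjusted p of 0.05 or less, against 9.05% of all genes over the same pairs; no other tool was run. With the library as a block the counts were 0 and 19 (35.2%, against 8.91% of all genes). The smallest p was that of Smad7 in other epithelium-like against macrophage-like cells (difference of log2 fold changes -2.62, unadjusted p = 0.000882, adjusted p = 0.154). For Smad7 in other epithelium-like against glia-like cells the difference was -2.12 (adjusted p = 0.222), in the pair where 0.0435% of the 11505 genes tested passed. Bmp7 in supporting against other epithelium-like cells differed by 3.74 (unadjusted p = 0.00375, adjusted p = 0.42), and Id1 in glia-like against macrophage-like cells by -4.03 (adjusted p = 0.363). The Bmp7 rise and the glial Id1 fall were therefore not shown to be particular to their class.

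In other epithelium-like cells an Id4 UMI was found in 50.4% and 48.9% of cells with Dox (95% Clopper-Pearson intervals 40.9 to 60.0% and 43.4 to 54.5%) and in 71.9% in Control (53.3 to 86.3%). Their median depths were 53323 and 37045 UMIs with Dox and 45500.5 in Control. In macrophage-like cells, which gave a background for Id4, the shares were 0% and 4.17% with Dox and 0% in Control, at median depths of 10483 and 23459.5 UMIs with Dox and 7810 in Control. Smad7 was found in 65.5% and 56.8% of other epithelium-like cells with Dox and 71.9% in Control, with overlapping intervals. In glia-like cells an Id1 UMI was found in 26.3% and 40.0% of cells with Dox (13.4 to 43.1% and 26.4 to 54.8%) and in 64.3% in Control (44.1 to 81.4%).

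Bmp7 in supporting cell-like cells was found in 39.3% and 36.0% of cells with Dox (26.5 to 53.2% and 17.97 to 57.5%) and in 4.35% in Control (0.11 to 21.9%). The Dox cells were deeper, and after thinning to 1000 UMIs per cell the shares were 4.00% and 0% with Dox and 0% in Control, a depth at which no difference was detectable. Thinned Id4 shares in other epithelium-like cells were 1.79% and 2.51% with Dox and 6.25% in Control, also with overlapping intervals. Thinned Id1 shares in glia-like cells were 2.63% and 4.08% with Dox and 18.5% in Control. Thinned Id4 shares in glia-like cells were 5.26% and 4.08% with Dox and 3.70% in Control, and thus not lower with Dox. In supporting cell-like cells the thinned Id4 shares were 4.00% and 0% with Dox and 0% in Control. These intervals and floors cover counting error only.

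**Figure D4:**
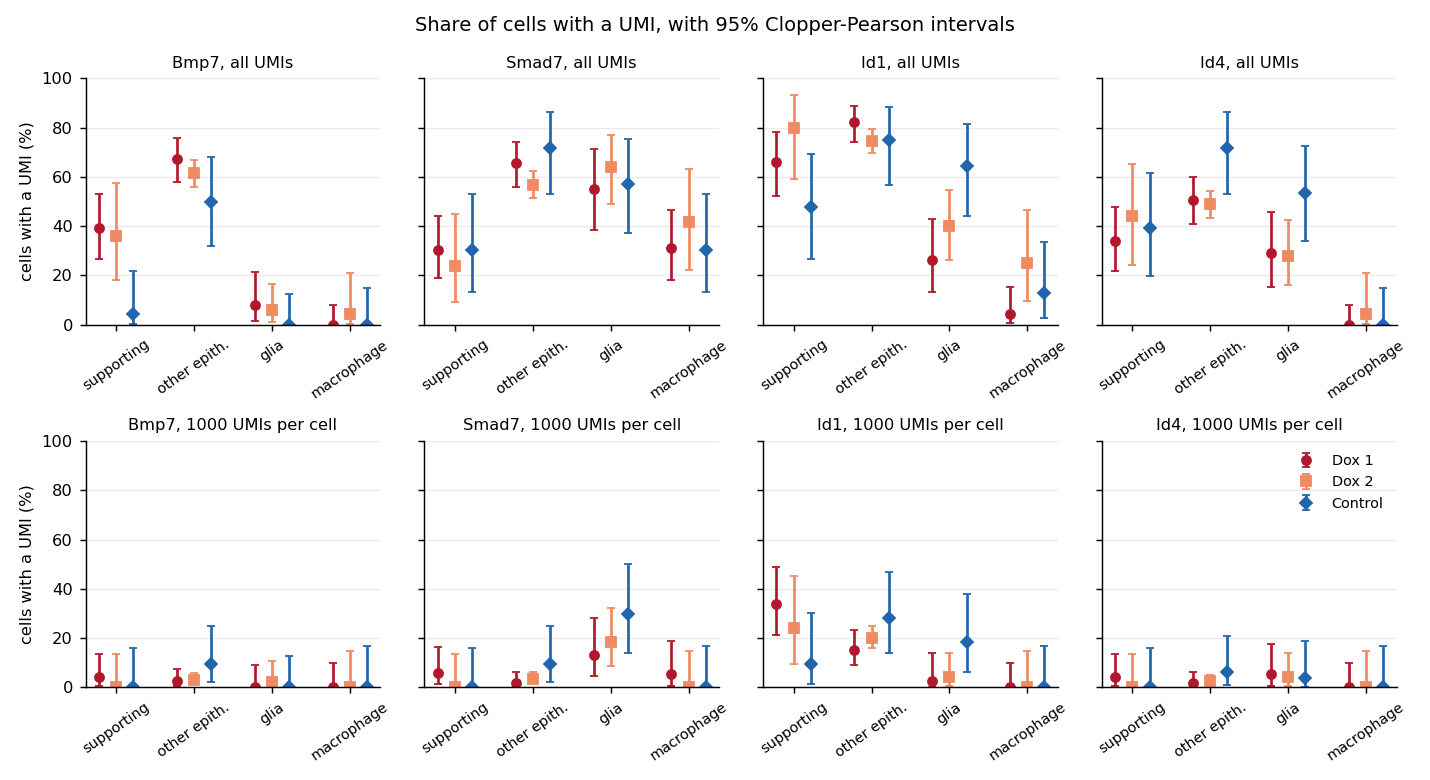
Share of cells (%) with a UMI of Bmp7, Smad7, Id1 and Id4 in 4 classes, with all UMIs (upper row) and at 1000 UMIs per cell (lower row); points are Dox 1, Dox 2 and Control with 95% Clopper-Pearson intervals. Bmp7 in supporting cell-like cells stands at 39.3% and 36.0% with Dox and 4.35% in Control before thinning, and all 3 lie at or under 4.00% after it.

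Of 10 other BMP ligands, 2 were tested in supporting cell-like cells and both rose: Bmp6 was 167 and 142 CPM with Dox and 68.0 CPM in Control (log2 fold change 1.19, SE 0.32, adjusted p = 0.0172), and Gdf6 had 44 and 16 UMIs with Dox and none in Control, at least 2.84-fold higher at a Control floor of 3 UMIs. In other epithelium-like cells 3 were tested and Bmp6 rose, with 104 and 62.7 CPM with Dox and 38.55 CPM in Control (1.10, SE 0.34, adjusted p = 0.0448). In supporting cell-like cells DESeq2 called neither ligand and gave 1 of them no adjusted p, and in other epithelium-like cells it called 1 higher. Over all genes tested by edgeR, 7.45% rose and 4.06% fell in supporting cell-like cells. In other epithelium-like cells 13.6% rose and 13.7% fell. Of 12 receptors and co-receptors, 9 were tested in each of these classes. In supporting cell-like cells Acvr2b, a type II activin receptor that also serves BMPs, rose (16.02 and 15.3 CPM with Dox, no UMI in Control, adjusted p = 0.0373) and none fell. Gdf6 and Acvr2b passed the filter on low counts of this class (12.5 CPM) only through their Dox sums, so that their calls rest on genes selected where they are high. In other epithelium-like cells Acvr2b rose and 4 fell: Tgfbr3, the co-receptor betaglycan (9.42 and 11.1 CPM with Dox, 37.9 in Control), the type I receptors Acvr1 and Bmpr1b, and the co-receptor Rgmb. With DESeq2, 1 receptor or co-receptor fell and none rose in other epithelium-like cells. None was called in supporting cell-like cells, where 7 of the 9 had no adjusted p.

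Extracellular BMP antagonists and modulators that fell in other epithelium-like cells were 4 of the 9 tested from a list of 17, and none rose. Over all genes tested in this class 13.7% fell and 13.6% rose. DESeq2 called 1 of the 9 lower and gave 2 of them no adjusted p. Nbl1, a DAN family antagonist, was 4.48 and 4.11 CPM with Dox and 22.8 CPM in Control (log2 fold change -2.41, adjusted p = 0.00186), and Crim1, Twsg1 and Chrdl1 were the others. In supporting cell-like cells the chordin-like Kcp fell (8.01 and 12.5 CPM with Dox, 43.5 in Control, adjusted p = 0.0134), 1 of 8 tested, and it passed the filter only through Control. Over all genes tested in that class 4.06% fell. DESeq2 called none of the 8 and gave 5 of them no adjusted p. Among the 6 SMADs and ubiquitin ligases, Smurf1, a ligase that marks SMAD1 and SMAD5 for degradation, fell in other epithelium-like cells (20.2 and 21.4 CPM with Dox, 35.4 in Control, adjusted p = 0.0319), 1 of 5 tested. DESeq2 called none of these 5, and by edgeR 13.7% of all genes tested in this class fell. In supporting cell-like cells none of 5 passed by edgeR or DESeq2, with 1 at an unadjusted p of 0.05 or less by edgeR. That gene was Smurf1, in the opposite direction to its fall in other epithelium-like cells. It had 29 and 13 UMIs with Dox and 1 in Control (log2 fold change 2.54, edgeR unadjusted p = 0.0272, adjusted p = 0.139). Smurf1 passed the filter there only through its Dox sums.

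BMP-induced transcription factors other than the Id genes fell in 3 of the 8 tested in other epithelium-like cells (Tbx3, Gata2 and Atoh8), in 1 of 2 in supporting cell-like cells (Tbx2) and in 1 of 4 in glia-like cells (Runx2), and none rose. Over all genes tested, 13.7%, 4.06% and 3.69% fell in these 3 classes. DESeq2 called 1 lower in other epithelium-like cells, where 4 had no adjusted p, and none in supporting cell-like cells. In glia-like cells it gave none of the 4 an adjusted p. Tbx3 was 16.4 and 28.2 CPM with Dox and 66.4 CPM in Control in the epithelium (log2 fold change -1.53, adjusted p = 0.00796), and Tbx2 was 81.2 and 73.9 CPM with Dox and 160.52 CPM in Control in supporting cell-like cells (-1.04, adjusted p = 0.0184). Runx2 was 6.92 and 1.89 CPM with Dox and 83.5 CPM in Control in glia-like cells (-4.07, adjusted p = 0.000591). Runx2 in glia-like cells and Atoh8 in the epithelium passed the filter only through Control, where they are high. Tcf3, which encodes the E proteins that Id proteins bind, rose in other epithelium-like cells (45.9 and 51.7 CPM with Dox, 17.1 in Control, log2 fold change 1.52, adjusted p = 0.00259), 1 of 3 E protein genes. DESeq2 also called 1 of the 3 higher, and by edgeR 13.6% of all genes tested in this class rose.

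Immediate early genes, which respond to handling and dissociation, were 12 of 12 tested in each class. In supporting cell-like cells Klf6, Dusp1 and Jun fell and none rose, in other epithelium-like cells Atf3, Ier2, Btg2 and Egr1 rose and Dusp1 fell, and in glia-like cells Klf6 fell. DESeq2 called 1 of the 12 higher in other epithelium-like cells and none in supporting cell-like or glia-like cells. Over all genes tested by edgeR, 7.45% rose and 4.06% fell in supporting cell-like cells. These shares were 13.6% and 13.7% in other epithelium-like cells and 3.36% and 3.69% in glia-like cells. Their part in the members' values was not tested. In the TGF-beta branch, Tgfb2 fell in other epithelium-like cells (73.3 and 49.7 CPM with Dox, 190.22 in Control, adjusted p = 0.00154), 1 of 9 tested. It rose in glia-like cells (91.4 and 67.9 CPM with Dox, 24.7 in Control, adjusted p = 0.0401), where Tgfbi, over the filter in Control alone, fell. In supporting cell-like cells the type I receptor Tgfbr1 rose (23.5 and 30.7 CPM with Dox, 2.72 in Control, adjusted p = 0.0291), having passed the filter only through its Dox sums. DESeq2 called 1 of this list lower in other epithelium-like cells, 1 higher and 1 lower in glia-like cells, and none in supporting cell-like cells. Of 6 Notch targets, 5 rose in supporting and in other epithelium-like cells, and 3 of the 5 tested rose in glia-like cells. DESeq2 called 4 higher in supporting cell-like cells, 4 in other epithelium-like cells and 2 in glia-like cells. In macrophage-like cells 1 of 3 tested rose, Hes1 (78.3 and 123 CPM with Dox, 13.9 in Control, adjusted p = 0.0144). Several of these too passed the filter only through their Dox sums, Hes1 in macrophage-like cells among them. In macrophage-like cells DESeq2 called none of the 3 and gave 2 of them no adjusted p. By edgeR 1.3% of all genes tested in that class rose.

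In all kept cells, where 8.33% of all genes fell and the fibroblast-like cells were in Control alone, 8 of the 14 antagonists tested fell and none rose, led by Fstl1 (90.0 and 77.4 CPM with Dox, 538 in Control, adjusted p = 0.0106), Nbl1, Twsg1 and Chrdl1. With DESeq2, 6 of the 14 fell. Fstl1 did not pass the test in other epithelium-like cells (log2 fold change 0.24, adjusted p = 0.871). Among ligands Bmp5 fell (3.29 and 4.74 CPM with Dox, 27.8 in Control, adjusted p = 0.0186) and Bmp6 rose (72.8 and 42.6 CPM with Dox, 15.0 in Control, adjusted p = 0.0471). In macrophage-like cells no other gene of the BMP lists passed by edgeR or DESeq2. There 1 gene, of the SMADs and ligases, had an unadjusted p of 0.05 or less.

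To find genes with the most similar pattern, correlations were taken over sums of clusters of at least 20 cells within libraries. This leaves out the Control sulcus-like and Reissner-like cells, where Bmp4 (59.3 CPM) and Id4 (247 CPM) were highest. Over 29 such sums, the Pearson correlation of log2(CPM + 10) is a description, since sums of 1 library share its depth and treatment. Bmp2 was most like Ly6a (0.956), Zbp1 (0.912) and Dio2 (0.903), and Bmp4 was most like Ildr2 (0.928), Matn4 (0.903) and Nkd1 (0.867). Both Bmp2 and Bmp4 had their highest level over these sums, 22.7 CPM, in the Control fibroblast-like cells. Ly6a and Dio2 are among the leading genes of that cluster. The part of that 1 sum in these correlations was not tested. Bmp7 was most like Myo5b (0.924), Wfdc3 (0.922) and Pkp2 (0.917). Among the Id genes, Id4 had the closest partners, Shroom3 (0.884), Dtna (0.872) and Dock9 (0.86). Id3 followed Cavin1 (0.827), Csrp2 (0.804) and Arl3 (0.797), Id1 followed Mtss1l (0.805), Gsta4 (0.781) and Vgll4 (0.751), and Id2 followed Ints6l (0.744), Elf1 (0.724) and Wdr1 (0.711). Among the 45 pairs of members, Smad7 and Bambi were most alike (0.773) and Bmp7 and Smad7 least (-0.625).

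Across the processing choices tried, 7 of the 20 calls of a member passed the threshold in every alternative with a test: Id4 and Bmp4 in other epithelium-like cells, and Bmp2, Bmp4, Id2, Smad6 and Smad7 in all kept cells. The remaining 13 lost the threshold in at least 1 alternative, and 2 of them (Id3 in other epithelium-like cells and Id4 in all kept cells) changed sign in 1. No alternative left out the fibroblast-like cells, which were in Control alone. The alternatives therefore cannot show the part of that cluster in the calls on all kept cells. Bmp2, Bmp4 and Smad6 in all kept cells had 8 alternatives with a test, against 9 for Id2 and Smad7. These 3 genes had no test with thinned cells, the setting in which Id4 in all kept cells lost the threshold.

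**Figure D5:**
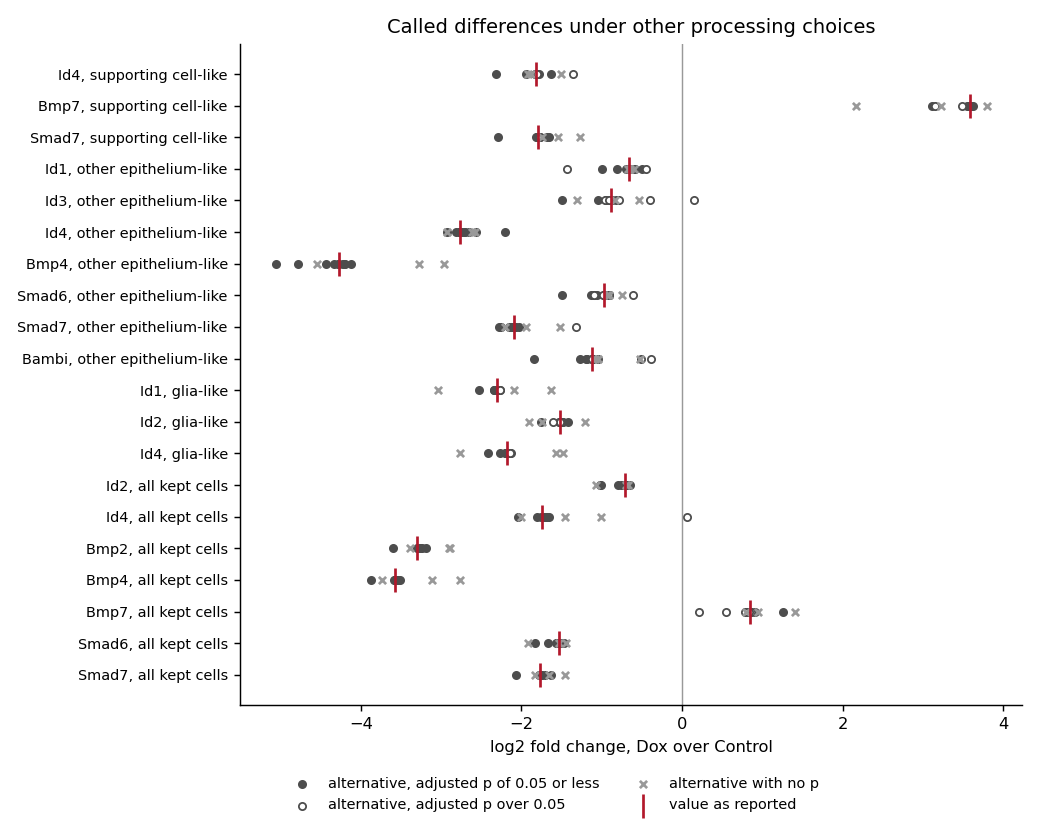
Log2 fold change, Dox over Control, of each call of a member as reported (red bar) and under each alternative (filled, adjusted p of 0.05 or less; open, over 0.05; cross, no p). Bmp4 in other epithelium-like cells lies at -2.97 or lower throughout, and 2 points lie right of 0 for a fall, Id3 in other epithelium-like cells (0.15) and Id4 in all kept cells (0.06).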

How the data were processed

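The authors deposited raw UMI counts per gene and barcode, 1 matrix per library (10x 3′ chemistry v3.1). Seurat 3.2.2, Cell Ranger 5.0 and STAR are named in the submitters' processing notes, with mm10 (GRCm38) as the build; the file headers give software version 3.1.0. The handling of intronic reads was not given in the sources. The members, gene lists and tests were chosen with earlier results of these data known.

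Cells were kept from 200 detected genes upward and up to 20% mitochondrial UMIs, and an entry of a shared barcode with under 10% of the UMIs of the deepest was left out as a shallow copy. Doublets were not called. Cells were clustered in scanpy 1.11.5 (2000 variable genes without 216 genes of the lists, 30 components, 15 neighbours, Leiden resolution 1, 18 clusters), and a cluster was named from at least 3 markers among its 25 leading genes. The naming markers included 2 genes of the tested lists. These were Hes5 for the supporting cell-like cluster and Gata3, 1 of 3, for the Epyc and Aqp4 cluster. UMIs were summed per class and library and tested in edgeR 4.0.16 (R 4.3.3; TMM, low-count filter, quasi-likelihood F test, Benjamini-Hochberg); DESeq2 1.42.0 was an alternative. Scaled CPM use TMM library sizes, and levels by group use plain CPM. With 1 Control library, the test has 1 residual degree of freedom, and the cultures pooled in a library are not separate replicates. Scripts were tested on simulated counts. Bmp4 and Id4 overlap other annotated genes (Gm15217 and Gm15222; A330033J07Rik and Gm49291), whose reads could be shared. All members are named in every comparison, with up to 4 called genes per pathway list by smallest p. One gene of the TGF-beta list is not reported here.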

Additional observations from a re-analysis of the deposited data

How the results depend on the processing

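Of 478 values of members under alternatives, 394 kept their direction and side of the threshold, or moved by less than the spread; 2 turned round, both with cells thinned to 1000 UMIs, Id3 in other epithelium-like cells (0.15) and Id4 in all kept cells (0.0575). In supporting cell-like cells (1 higher, 2 lower), 0 were higher with DESeq2's Wald test, the shallow copies kept, thinning or the 5% deepest cells left out, 0 were lower with DESeq2, the copies kept or thinning, and 4 were lower with total count scaling. In other epithelium-like cells (7 lower), 4 were lower with DESeq2, 3 in Reissner-like cells alone and 0 with thinning. In glia-like cells (3 lower), 0 were lower with DESeq2 or thinning. In all kept cells (1 higher, 6 lower), 0 were higher with DESeq2, its size factors, the copies kept, the stricter cell filter, thinning, total count scaling or cells of little Malat1 left out, and 3 were lower with thinning. Thinning also left fewer genes to test (475 in supporting cell-like cells); for the other settings the cause was not tested.

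Over all genes, DESeq2 called 221 higher and 67 lower in supporting cell-like cells (edgeR 663 and 361), 695 and 691 in other epithelium-like cells (1730 and 1742), 120 and 56 in glia-like cells (256 and 281) and 13 and 9 in macrophage-like cells (101 and 68). With the copies kept, 422 and 187 were called in supporting cell-like cells and 18 and 25 in macrophage-like cells. Under total count scaling the share of rises among calls was 36.8% in other epithelium-like cells (49.8% as reported), 30.7% in glia-like cells (47.7%) and 30.8% in all kept cells (54.9%), and the median of all genes moved to -0.13, -0.22 and -0.30.

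Leaving out Dox 1 or Dox 2 leaves no residual degree of freedom, so these are values with no test: glial Id1 then ranged over -3.04 to -1.63, Id4 over -2.76 to -1.48 and Id2 over -1.75 to -1.21, and Bmp7 in supporting cell-like cells was 2.17 without Dox 1. Other settings that left under 20 cells of a class in a library were not run; the sulcus-like (13 Control cells) and Reissner-like (19 Control cells) groups alone were. No paired analysis was possible because the 1 Control library has no numbered partner among the Dox libraries. Low depth limits Bmp2, Bmp4 and Smad6 most, which had few UMIs or none in several classes.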
